A study of Homo sapiens with 120 samples.

Results

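ΔATG cells were set against KO cells on each of days 1 to 5 of BMP4 treatment, to ask how a lncPRESS1 gene edited at its start codon and a lncPRESS1 knockout differ while stem cells leave pluripotency towards mesoderm. Libraries were taken by their titles, which give the line, the protocol, the day and a letter. They are 10 libraries of ΔATG and 10 of KO, 2 per line and day, and they make up 20 of the 120 libraries in the series. The cells are H1, an established line of human embryonic stem cells, and LNCPRESS1 (lncPRESS1, ENSG00000232301, chromosome 7, positions 101299578 to 101301346 on the + strand of GRCh38) is a gene for a long non-coding RNA of pluripotent cells. From its name, ΔATG lacks a start codon of that RNA, and KO is labelled a knockout without further detail. Both lines were seeded on Matrigel in mTeSR medium and received BMP4, with no other agent named for this protocol. The 10 WT libraries of the same days come from unedited H1 cells and are given as levels only. The number of clones behind each edit is not given in the sources used here, and the effect of an edit cannot be told apart from that of its clone. Nothing says that libraries a and b came from separate cultures, so p-values measure only the spread between these libraries, which may be technical.

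BMP4 is a secreted ligand of the TGF-β superfamily that binds a pair of receptor kinase types and sets off phosphorylation of SMAD1, SMAD5 and SMAD9, which enter the nucleus with SMAD4 and switch on genes such as those of the ID, MSX and GATA families. In human embryonic stem cells it induces, together with Wnt and Nodal signals made by the cells themselves, the primitive streak genes TBXT and EOMES, and later either mesoderm or amnion and trophoblast genes.

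The 20 libraries held 48068095 to 59398824 counts in ΔATG and 47942673 to 63604706 in KO, with 27572 to 28721 and 27629 to 28625 genes above 0. Mitochondrial genes took a median of 5.49% of counts in ΔATG (3.91% to 7.41%) and 6.28% in KO (4.03% to 8.61%). The part of this difference in the results was not tested. LNCPRESS1 itself was measured at 10.5 to 17.4 CPM, counts scaled to the size of the library, in the 10 ΔATG libraries, against 3.23 to 13.7 CPM in the 10 KO libraries and a median of 12.8 CPM in WT. On day 1 the levels were 17.4 and 15.9 CPM in ΔATG against 13.7 and 11 CPM in KO, and on day 5 they were 12.5 and 10.5 CPM in ΔATG against 3.23 and 3.66 CPM in KO. Both ΔATG libraries lay above both KO libraries on each day. The average log2 difference, ΔATG minus KO, was 1.19 ± 0.131 (SE), with an adjusted p of 6.28e-10, and single days passed the test on days 3 to 5. KO kept counts from the gene on every day. Which bases each edit removes is not stated in the labels, and these counts check the labels only in part. EMSLR, a long non-coding RNA gene near LNCPRESS1 on the same strand (positions 101308346 to 101310985), averaged 0.36 ± 0.0636 (SE; adjusted p = 3.96e-05). Its log2 difference was -0.053 on day 1 and 0.874 on day 5, and single days passed the test on days 4 and 5 only. The joint test of dependence on day gave an adjusted p of 0.0382.

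Averaged over the 5 days, 3244 of 25821 tested genes (12.6%) differed at an adjusted p under 0.05, which is the meaning of a call throughout. Of these, 2143 were higher in ΔATG (8.3% of tested genes) and 1101 were lower (4.26%). Most differences were small: the median absolute log2 fold change of called genes was 0.294, while 209 genes were at least 2-fold higher and 159 at least 2-fold lower. The sign was the same on all 5 days for 2358 called genes, 1567 higher and 791 lower. With a block for the library letter the count of calls was 5775, and with only the compared libraries in the fit it was 1743. It was 1777 without day 4, 2081 without day 5 and 2178 to 4495 without one library. Counts of list members with the block, given below, stand beside 5775 calls over all tested genes and not 3244. The median log2 difference over all tested genes was 0.00761, and this value stands as the background for each list of genes described from here on. The lists overlap in part, with 582 genes in 636 entries.

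**Figure D1:**
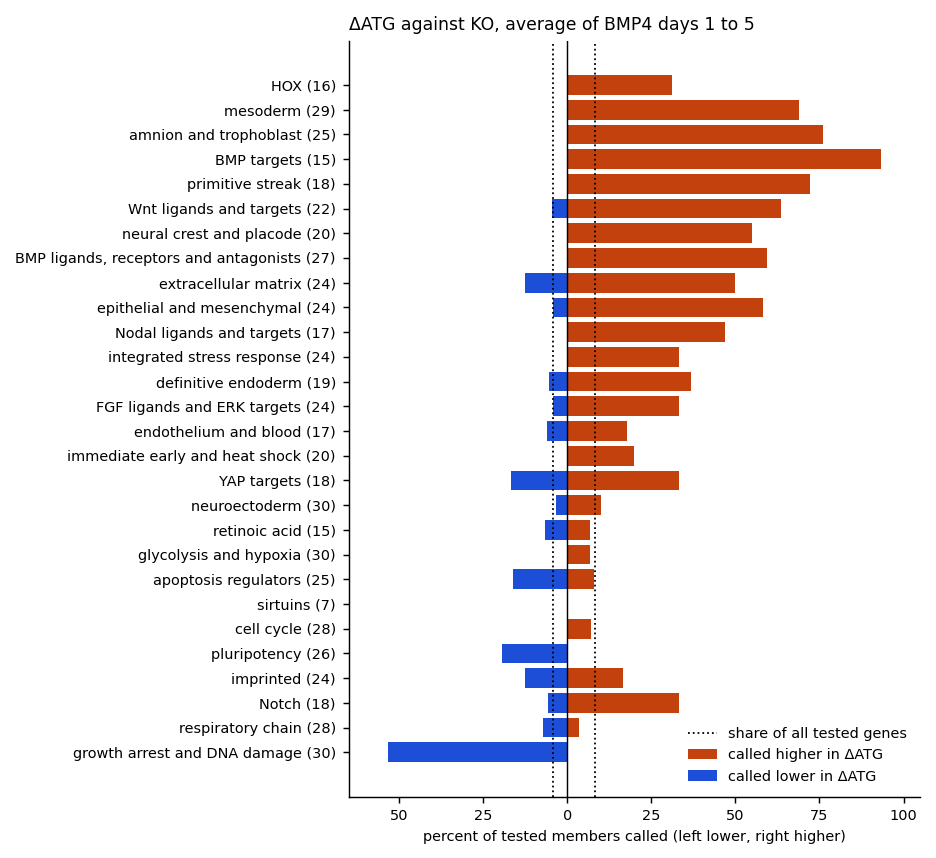
Share of tested members called in each of 28 gene lists, average of BMP4 days 1 to 5. Bars to the right give the percentage called higher in ΔATG than in KO and bars to the left the percentage called lower; the number of tested members stands in parentheses, and dotted lines mark the shares over all tested genes, 8.3% and 4.26%. BMP targets, mesoderm, amnion and trophoblast and primitive streak genes lay far to the right, and growth arrest and DNA damage genes to the left. Some genes are counted in several lists.

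Genes of the BMP pathway were higher in ΔATG than in KO. Here and below, a gene that rose or fell was higher or lower in ΔATG than in KO, not than in WT. Of 27 ligands, receptors, SMADs and antagonists tested, 16 were called higher and none lower (background 8.3% and 4.26%), with a median log2 difference of 0.326. Summed, the list gave 1200 to 1840 CPM in ΔATG, 877 to 1550 CPM in KO and 1320 to 2050 CPM in WT. Mean BMP4 levels were 106 CPM in ΔATG, 56.6 CPM in KO and 162 CPM in WT. BMP4 itself, the ligand that was also added to the medium, had 111 and 101 CPM on day 1 in ΔATG against 60.8 and 62.7 CPM in KO. On day 3 it had 61.7 and 62.5 CPM in ΔATG against 38.8 and 34 CPM in KO, and on day 5 it had 173 and 130 CPM in ΔATG against 52.8 and 83.6 CPM in KO. The libraries of the lines did not overlap on any day. BMP4 rose by a log2 difference of 0.88 ± 0.0665 (SE; adjusted p = 1.66e-15) and was called on each of the 5 days. The count is of cellular RNA, not of the added protein. Whether more cells carried a transcript or each cell held more of it cannot be told apart in bulk RNA, here or in any result that follows.

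Among the other ligands BMP2 (0.57) and BMP5 (1.40) rose, while BMP7 stood at -0.18 and BMP6 at -0.04 without a call. The receptor genes moved less: BMPR1A rose by a log2 difference of 0.21, BMPR2 by 0.35 and ACVR1 by 0.19. Of the signal transducers, SMAD1 (0.27), SMAD9 (0.71) and SMAD4 (0.27) were called higher. Some antagonists and modulators rose, with NOG at 0.55 and CHRD at 0.67, while FST (-0.01), CHRDL1 (-0.02), GREM1 (0.35) and TWSG1 (0.20) were not called. BMPER, a secreted BMP-binding protein, had 32.3 and 25 CPM on day 5 in ΔATG against 6.39 and 10.8 CPM in KO, and an average log2 difference of 1.19 ± 0.123 (SE; adjusted p = 7.62e-11). Some ligands and some antagonists were higher in the same line.

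Of 15 BMP target genes 14 were called higher and none lower, with a median log2 difference of 0.744. Their sum was 601 to 1490 CPM in ΔATG, 368 to 1120 CPM in KO and 660 to 2330 CPM in WT. The immediate targets ID1 to ID4, which encode inhibitors of basic helix-loop-helix factors, rose by log2 differences of 0.24, 0.29, 0.31 and 0.45. ID1 had 158 and 164 CPM on day 2 in ΔATG against 117 and 110 CPM in KO, while on day 4 it had 332 and 389 CPM in ΔATG against 353 and 374 CPM in KO, where the lines overlapped. The feedback inhibitors SMAD6 (0.31), SMAD7 (0.38) and BAMBI (0.74) rose too. MSX1, a homeobox factor, had 71 and 60.8 CPM on day 5 in ΔATG against 22.7 and 41.9 CPM in KO, an average log2 difference of 0.94 ± 0.131 (SE; adjusted p = 2.59e-07). The MSX, GATA, TBX3, HAND1 and DLX5 genes of this list had log2 differences from 0.81 to 1.25, each above those of the ID genes. ATOH8 was the member without a call, at 0.11. Of the members called, HAND1 and TBX3 stand on the mesoderm list described below too, and GATA2, GATA3, BAMBI and HAND1 on the amnion list. MSX1, MSX2 and DLX5 are also neural crest entries, and SMAD7 is also a Nodal entry. The counts of these lists are therefore not independent of each other.

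Wnt genes followed the same direction: 14 of 22 tested ligands, targets and regulators were called higher and 1 lower, with a median log2 difference of 0.497. Their sum was 289 to 461 CPM in ΔATG, 232 to 294 CPM in KO and 429 to 736 CPM in WT. WNT8A, a ligand of the primitive streak, had 22.5 and 23.1 CPM on day 3 in ΔATG against 12.4 and 7.17 CPM in KO. On day 1 its levels were 5.97 and 6.05 CPM in ΔATG against 6.08 and 5.29 CPM in KO, so that the lines overlapped there and separated from day 2 on. Its average log2 difference was 1.30 ± 0.142 (SE; adjusted p = 6.28e-10). WNT5A, a ligand that signals mostly without β-catenin, reached 123 and 99.3 CPM on day 4 in ΔATG against 54.5 and 60.6 CPM in KO, with an average of 1.02 ± 0.115 (SE; adjusted p = 9.89e-10). WNT3 (0.61), WNT5B (0.90) and the nuclear partner LEF1 (0.79) rose. The feedback target AXIN2 rose by 0.17 and NOTUM by 0.51, whereas NKD2, an inhibitor of the pathway, fell by 0.24 on the log2 scale. LGR5, a receptor for R-spondins, averaged 1.30 ± 0.262 (SE; adjusted p = 0.000291) and lost its call without ΔATG day 1 library a.

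Of 17 tested genes of the Nodal pathway 8 were called higher and none lower, with a median log2 difference of 0.238. NODAL (0.54) and its inhibitors LEFTY2 (0.34) and CER1 (0.62) rose, while LEFTY1 (0.25), GDF3 (0.16) and TDGF1 (-0.17) were not called. CFC1, a co-receptor of Nodal, had 63.4 and 61.3 CPM on day 4 in ΔATG against 18.1 and 23.2 CPM in KO. Its average log2 difference was 1.48 ± 0.356 (SE; adjusted p = 0.00298), and without ΔATG day 1 library a it was not called. Of 24 FGF and ERK genes 8 were called higher and 1 lower. With the block for the letter, which raised calls over all tested genes from 3244 to 5775, the counts were 14 and 2. SPRY2, a feedback inhibitor of ERK signalling, rose by 0.51 and ETV5, a factor induced by it, by 0.40. FOSL1, a subunit of AP-1, fell by 0.93 on the log2 scale, with 2.74 and 2.78 CPM on day 3 in ΔATG against 7.64 and 9.01 CPM in KO. The receptors FGFR1 (-0.03) and FGFR2 (-0.03) were not called.

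Notch genes split: 6 of 18 were called higher and 1 lower, around a median log2 difference of -0.0551. With the block, and its 5775 calls over all tested genes, the counts were 7 and 4. HEY1, a Notch and BMP target, had 13.1 and 6.8 CPM on day 2 in ΔATG against 2.3 and 2 CPM in KO, and averaged 1.16 ± 0.123 (SE; adjusted p = 1.64e-10). The ligand DLL3, a gene of the presomitic mesoderm, had 55.3 and 56.3 CPM on day 3 in ΔATG against 35.7 and 28.1 CPM in KO, while on day 1 it was lower in both ΔATG libraries, at 3.53 and 3.78 CPM, than in both KO libraries, at 4.17 and 4.98 CPM. NOTCH1 (-0.09), HES4 (-0.12) and NRARP (-0.09) were not called.

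Primitive streak genes were higher in ΔATG from day 2 on. Of 18 tested, 13 were called higher on average and none lower, with a median log2 difference of 0.575. By day the median was -0.123 on day 1, with no member called in either direction, and 1.27 on day 2, with 15 members called higher where 1.83% of all tested genes were. On days 3, 4 and 5 the medians were 0.629, 0.438 and 0.698, with 5, 4 and 6 members called higher and none lower. TBXT, the brachyury factor that defines the streak, had 37.3 and 39.6 CPM on day 1 in ΔATG against 44.1 and 39.7 CPM in KO. On day 2 it had 95.6 and 49.6 CPM in ΔATG against 22.4 and 21.2 CPM in KO, and on day 3 it had 61.7 and 59.7 CPM in ΔATG against 30.7 and 20.9 CPM in KO. Both ΔATG libraries were below both KO libraries on day 1 and above them on days 2 to 5. The average log2 difference was 1.01 ± 0.0875 (SE; adjusted p = 2.61e-13), and its dependence on day passed the test at an adjusted p of 0.000368.

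MIXL1, a homeobox factor of the streak, had 98.6 and 55.9 CPM on day 2 in ΔATG against 26.5 and 25.8 CPM in KO, and EOMES, a T-box factor shared by streak and endoderm, had 66.1 and 42.5 CPM in ΔATG against 20.2 and 20.4 CPM in KO. On day 3 EOMES had 33.7 and 35 CPM in ΔATG against 29.6 and 22.7 CPM in KO, so the gap of day 2 was smaller there. In WT, TBXT ranged over 9.18 to 156 CPM and EOMES over 17.9 to 111 CPM in the 10 libraries. APLNR, the apelin receptor of early mesoderm, had 49.1 and 20.3 CPM on day 2 in ΔATG against 10.5 and 9.98 CPM in KO, and 291 and 240 CPM on day 4 in ΔATG against 157 and 160 CPM in KO. On day 2 library a of ΔATG was above library b for each of TBXT, MIXL1, EOMES and APLNR, and both stood above KO. MESP1 (1.00), EVX1 (0.91) and CDX1 (1.42) rose, while FGF8 (0.16), FGF17 (-0.05) and GSC (0.24) were not called. MSGN1, at 1.57 ± 0.497 (SE; adjusted p = 0.0442), lost its call in 11 of 20 fits that left out a library.

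**Figure D2:**
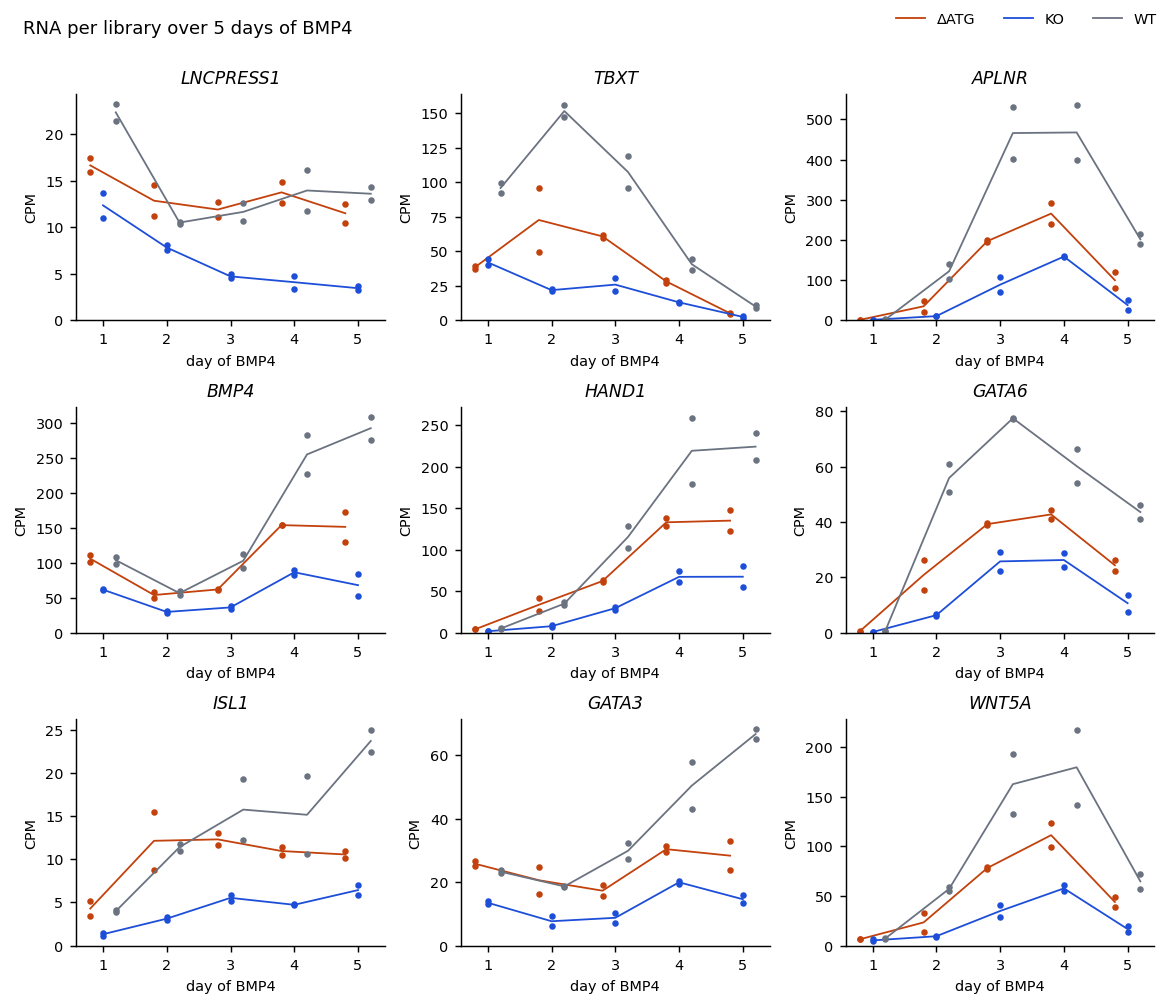
CPM of LNCPRESS1 and 8 genes of the streak, mesoderm and BMP response in each library, by day of BMP4. Points are libraries, 2 per line and day, and lines join their means; ΔATG is orange, KO blue and WT grey. HAND1 on day 4 stood at 138 and 128 CPM in ΔATG and at 60.8 and 74 CPM in KO, and TBXT was separated from day 2 but not raised on day 1.

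Mesoderm genes were higher in ΔATG as a list: 20 of 29 were called higher and none lower, with a median log2 difference of 0.878, the highest median among lists of at least 20 tested genes. HAND1, a factor of lateral and extraembryonic mesoderm, had 4.48 and 4.08 CPM on day 1 in ΔATG against 1.91 and 2.03 CPM in KO. On day 2 it had 41.8 and 25.8 CPM in ΔATG against 8.98 and 7.1 CPM in KO, and on day 5 it had 148 and 122 CPM in ΔATG against 54.9 and 80.2 CPM in KO. The lines did not overlap on any day, and HAND1 was called on all 5, with an average log2 difference of 1.25 ± 0.105 (SE; adjusted p = 1.55e-13). Its WT level ranged over 4.26 to 259 CPM with a median of 115 CPM.

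GATA6, a zinc finger factor of mesoderm and endoderm, had 26.2 and 15.6 CPM on day 2 in ΔATG against 6.15 and 6.65 CPM in KO, and 26.3 and 22.5 CPM on day 5 in ΔATG against 7.64 and 13.8 CPM in KO. Its average was 1.03 ± 0.109 (SE; adjusted p = 1.47e-10), and in WT its median was 52.5 CPM. ISL1, a LIM factor of second heart field and amnion, had 15.5 and 8.77 CPM on day 2 in ΔATG against 3.29 and 2.94 CPM in KO, an average of 1.35 ± 0.154 (SE; adjusted p = 2.18e-09). TBX3, a T-box repressor and BMP target, averaged 1.09 ± 0.112 (SE; adjusted p = 7.02e-11). For each of these 3 genes both ΔATG libraries lay above both KO libraries on all 5 days, as they did for 1.12% of tested genes. HAND2 (1.18), FOXF1 (1.26), FOXC1 (0.91), GATA4 (0.63), MEIS1 (0.90), PDGFRA (0.80) and SNAI2 (0.77) were also called higher.

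The members without a call were mostly low: NKX2-5 averaged 0.382 CPM in ΔATG and 0.263 CPM in KO, MEOX1 0.172 and 0.11 CPM, and OSR1 0.123 and 0.098 CPM. KDR, the VEGF receptor of early mesoderm, was already high on day 1, at 519 and 463 CPM in ΔATG against 451 and 441 CPM in KO, and declined with time in both. On day 5 it had 131 and 100 CPM in ΔATG against 62.8 and 77.7 CPM in KO, with an average of 0.51 ± 0.0605 (SE; adjusted p = 4.98e-09). Summed over the list, mesoderm genes gave 516 to 711 CPM in ΔATG, 249 to 550 CPM in KO and 629 to 1240 CPM in WT. The ranges of ΔATG and KO overlapped between 516 and 550 CPM.

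Amnion and trophoblast genes, which BMP4 also induces, moved with the mesoderm genes. Of 25 tested 19 were called higher and none lower, with a median log2 difference of 0.744. Of these, 2, ISL1 and HAND1, are on the mesoderm list too, and GATA2, GATA3, BAMBI and HAND1 are on the BMP target list. GATA3, a factor of trophoblast and amnion, had 26.6 and 25 CPM on day 1 in ΔATG against 14 and 13 CPM in KO, and 33 and 23.7 CPM on day 5 in ΔATG against 13.3 and 15.9 CPM in KO. It averaged 0.98 ± 0.0962 (SE; adjusted p = 1.63e-11) and did not overlap on any day. TFAP2A, a factor of surface ectoderm, amnion and neural crest, averaged 0.98 ± 0.111 (SE; adjusted p = 1.17e-09). CDX2 had 15 and 7.86 CPM on day 1 in ΔATG against 6.31 and 10.3 CPM in KO, where the lines overlapped, and it averaged 1.11 ± 0.214 (SE; adjusted p = 0.000274). GABRP (0.62), VTCN1 (1.10), WNT6 (1.13) and IGFBP3 (0.59) rose. KRT19, an epithelial keratin, had 663 and 735 CPM on day 4 in ΔATG against 402 and 436 CPM in KO and averaged 0.56 ± 0.05 (SE; adjusted p = 9.18e-13), while KRT7 stood at -0.14 and CGB5, a chorionic gonadotropin subunit, at 0.178 CPM in ΔATG and 0.161 CPM in KO.

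Of 20 neural crest and placode genes 11 were called higher and none lower, with a median of 0.43, among them DLX5 (1.02), DLX6 (0.92), MSX2 (0.83), PAX7 (0.78) and TFAP2B (1.69), the last of which lost its call without ΔATG day 1 library a. The neural crest factors SOX10 (-0.07), FOXD3 (-0.10) and SOX9 (-0.05) were not called. Of the members called, TFAP2A, TFAP2B, SNAI2, DLX5, MSX1 and MSX2 stand on the amnion, mesoderm or BMP target list too. DLX5, a homeobox target of BMP, had 6.53 and 3.69 CPM on day 2 in ΔATG against 0.993 and 0.667 CPM in KO, but 8.89 and 7.48 CPM on day 5 in ΔATG against 11.3 and 7.99 CPM in KO, a dependence on day with an adjusted p of 0.0045. Of the HOX genes, 16 of 26 had enough counts to be tested, 5 were called higher and none lower, with a median log2 difference of 1.28. HOXB2 had 10.3 and 10.9 CPM on day 5 in ΔATG against 2.78 and 5.21 CPM in KO and averaged 1.71 ± 0.257 (SE; adjusted p = 2.01e-06). A HOX gene that passed the filter only where it was high had to differ, so the median is a description of the 16.

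Lists of other cell types showed smaller differences. The background for each of them was again 8.3% higher and 4.26% lower. Of 19 endoderm genes 7 were called higher and 1 lower, with a median of 0.177. SOX17 (0.63), CER1 (0.62) and PRDM1 (0.43) rose, while FOXA2 (-0.14), CXCR4 (0.07) and HHEX (-0.03) were not called. The other members called higher, GATA4, GATA6, EOMES and LHX1, stand on the mesoderm or primitive streak list too. Summed, the endoderm list gave 632 to 816 CPM in ΔATG, 625 to 788 CPM in KO and 728 to 1100 CPM in WT. Of 30 neuroectoderm genes 3 were called higher and 1 lower, near the background, with a median of 0.0424. Their summed level was 440 to 1240 CPM in ΔATG, 455 to 1630 CPM in KO and 463 to 779 CPM in WT. NR2F2 (1.31), POU3F2 (1.16) and CDH2 (0.27) were the members that rose on average, and SOX3 fell by 0.40 on the log2 scale. On day 2, and again on day 5, 3 neuroectoderm genes were called lower and none higher. The shares of all tested genes called lower were 0.689% and 0.736% on those days. On days 3 and 4, 1 was called in each direction, and on day 1 only 1 higher. The difference depended on the day for 4 of the 30. POU3F2 was low, with a median of 0.227 CPM in ΔATG and 0.0971 CPM in KO, and lost its call in 8 of 20 fits that left out a library. SOX1, a defining factor of neuroectoderm, was at most 0.239 CPM in ΔATG and 0.11 CPM in KO. PAX6 was at most 1.62 CPM in ΔATG and 3.02 CPM in KO. Neither SOX1 nor PAX6 was called on average. Of 17 tested genes of endothelium and blood 3 were called higher and 1 lower, with a median of 0.104 and a sum of 164 to 593 CPM in ΔATG and 126 to 527 CPM in KO. RUNX1 (0.99), SOX7 (0.71) and KDR were the members that rose, RUNX1 not without ΔATG day 1 library b or ΔATG day 2 library a. The defining genes PECAM1 (0.0964 CPM in ΔATG, 0.114 CPM in KO) and CDH5 (0.109 and 0.0929 CPM) were near 0 in both, and TEK, an angiopoietin receptor, fell by 0.54 on the log2 scale. The part of these other cell types in the mesoderm result was not tested.

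A few pluripotency genes were lower in ΔATG, by small differences. Of 26 tested, 5 were called lower (background 4.26%) and none higher (background 8.3%), with a median log2 difference of -0.02. With the block, which raised calls over all tested genes from 3244 to 5775, the counts were 7 lower and 4 higher. POU5F1, the core factor OCT4, had 2280 and 2400 CPM on day 1 in ΔATG against 2390 and 2510 CPM in KO, and 1330 and 1350 CPM on day 5 in ΔATG against 1210 and 1450 CPM in KO. Its average was -0.03 ± 0.0373 (SE; adjusted p = 0.637), and the lines overlapped on each of the 5 days. NANOG averaged 0.18 ± 0.131 (SE; adjusted p = 0.432). SOX2, a pluripotency factor that also marks neural fate, had 242 and 271 CPM on day 5 in ΔATG against 413 and 338 CPM in KO. It fell by 0.26 ± 0.0507 on the log2 scale (SE; adjusted p = 0.000212), while on day 1 its levels were 354 and 303 CPM in ΔATG against 346 and 295 CPM in KO, where the lines overlapped. UTF1 (-0.36), DNMT3B (-0.15), ZSCAN10 (-0.17) and ESRG (-0.17) were the other members that fell. Summed, the list gave 7940 to 12800 CPM in ΔATG, 8240 to 13900 CPM in KO and 5680 to 12500 CPM in WT.

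Mesenchymal and matrix genes were higher in ΔATG, and epithelial genes were mixed. Of 24 genes on the epithelial and mesenchymal list 14 were called higher and 1 lower, with a median of 0.28. The mesenchymal genes FN1 (0.55), SNAI1 (0.33), MMP2 (0.31) and SPARC (0.31) rose. Of the epithelial genes CLDN4 (0.29), CLDN7 (0.16) and GRHL2 (0.32) rose and CLDN6 fell by 0.12 on the log2 scale, while CDH1 (0.20), EPCAM (0.10), CLDN3 (-0.09), OCLN (0.23), TJP1 (0.11), ESRP1 (0.08), ESRP2 (-0.05) and CRB3 (-0.01) were not called. FN1, which encodes fibronectin, had 1660 and 1650 CPM on day 2 in ΔATG against 850 and 1010 CPM in KO, and averaged 0.55 ± 0.0776 (SE; adjusted p = 3.79e-07). Of 24 extracellular matrix genes 12 were called higher and 3 lower, with a median of 0.29. The fibrillin gene FBN2 had 234 and 221 CPM on day 4 in ΔATG against 136 and 140 CPM in KO and averaged 0.61 ± 0.0595 (SE; adjusted p = 1.36e-11). COL5A1 (0.45), COL5A2 (0.49) and LAMC1 (0.38) rose, COL6A3 (-0.39) and COL9A3 (-0.16) fell, and COL1A1 stood at -0.07 without a call. Of 18 YAP target genes 6 were called higher and 3 lower: ANKRD1 (0.57) and AMOTL1 (0.53) rose, while the smooth muscle genes TAGLN (-0.39) and ACTA2 (-0.47) fell and the defining targets CCN1 (-0.11) and CCN2 (-0.11) were not called.

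Genes of growth arrest and the response to DNA damage were lower in ΔATG. Of 30 tested 16 were called lower, against a background of 4.26%, and none higher, with a median log2 difference of -0.228. CDKN1A, the p21 cell cycle inhibitor, had 6.7 and 8.33 CPM on day 1 in ΔATG against 20.6 and 21.5 CPM in KO. On day 3 it had 9.74 and 9.36 CPM in ΔATG against 27.4 and 26.6 CPM in KO, and on day 5 it had 45.9 and 38.1 CPM in ΔATG against 43.6 and 59 CPM in KO. The lines were apart on days 1 to 4 and overlapped on day 5, with an average of -1.08 ± 0.0896 (SE; adjusted p = 4.39e-14). GDF15, a secreted stress cytokine, had 2.26 and 1.76 CPM on day 3 in ΔATG against 5.64 and 6.8 CPM in KO, and averaged -0.83 ± 0.132 (SE; adjusted p = 5.19e-06). BBC3, the death gene PUMA, fell by 0.34, BAX by 0.31, FDXR by 0.49, PHLDA3 by 0.61, DDB2 by 0.43 and RPS27L by 0.40 on the log2 scale. MDM2, a ubiquitin ligase, stood at -0.29 ± 0.152 (SE; adjusted p = 0.227) and SESN2 at 0.21, neither called. Summed, the list gave 1140 to 1480 CPM in ΔATG, 1310 to 1610 CPM in KO and 1290 to 2180 CPM in WT, so the ranges of the lines overlapped.

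Of 28 cell cycle genes 2 were called higher, TOP2A (0.15) and CCND2 (0.13), and none lower, near the background of 8.3% and 4.26%; CCND2 lost its call in 3 of 20 fits without a library. MKI67 stood at 0.09 and CDK1 at 0.05 without a call. Of 25 apoptosis regulators 2 were called higher and 4 lower. With the block, and its 5775 calls over all tested genes, the counts were 6 and 5. CFLAR, an inhibitor of caspase-8 activation, had 6.13 and 3.88 CPM on day 1 in ΔATG against 12.1 and 10.6 CPM in KO, and fell by 0.73 ± 0.0854 on the log2 scale (SE; adjusted p = 3.11e-09). MLKL, the executor of necroptosis, ran the other way: its 10 ΔATG libraries held 2.3 to 6.1 CPM, against 0.266 to 1.45 CPM in KO and 0.576 to 2.18 CPM in WT, with an average of 2.42 ± 0.187 (SE; adjusted p = 3.76e-15).

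**Figure D3:**
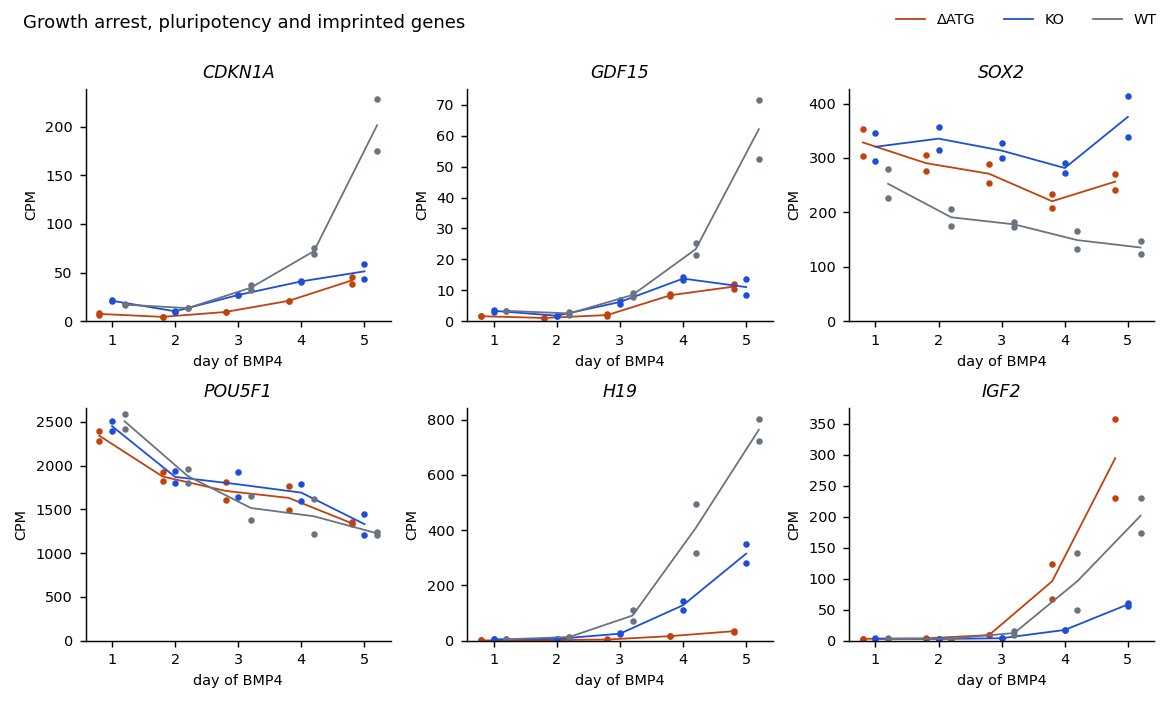
CPM of CDKN1A, GDF15, SOX2, POU5F1, H19 and IGF2 in each library, by day of BMP4. Points are libraries, 2 per line and day, and lines join their means; ΔATG is orange, KO blue and WT grey. CDKN1A was lower in ΔATG on days 1 to 4 and overlapped on day 5, POU5F1 overlapped, and H19 and IGF2 moved in opposite directions.

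Of 24 imprinted genes 4 were called higher and 3 lower, and the pair at one locus on chromosome 11 ran in opposite directions. H19, a maternally expressed long non-coding RNA, had 0.275 and 0.453 CPM on day 1 in ΔATG against 4.64 and 3.91 CPM in KO. On day 3 it had 3.47 and 3.97 CPM in ΔATG against 26.8 and 22.9 CPM in KO, and on day 5 it had 35.4 and 32.3 CPM in ΔATG against 280 and 350 CPM in KO. It increased with time in both lines, and on average it fell by 2.90 ± 0.141 on the log2 scale in ΔATG (SE; adjusted p = 3.48e-23). IGF2, the paternally expressed growth factor next to it, had 2.81 and 2.82 CPM on day 1 in ΔATG against 2.47 and 3.51 CPM in KO. On day 4 it had 124 and 67.5 CPM in ΔATG against 17.3 and 16.9 CPM in KO, and on day 5 it had 358 and 231 CPM in ΔATG against 55.8 and 60.9 CPM in KO. The lines overlapped on day 1 and lay apart from day 2 on, with an average of 1.30 ± 0.127 (SE; adjusted p = 1.54e-11) and a dependence on day at an adjusted p of 0.000134. In WT, H19 ranged over 4.12 to 803 CPM and IGF2 over 2.07 to 230 CPM. The reads of the parental copies were not separated. NLRP2 fell by 1.18 and SNRPN by 0.12 on the log2 scale, PLAGL1 (0.47) and MEST (0.19) rose, and PEG10 (-0.02), GRB10 (0.02) and KCNQ1OT1 (-0.03) were not called.

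Of 24 genes of the integrated stress response 8 were called higher and none lower (background 8.3% and 4.26%), with a median of 0.197. The transporters SLC7A5 (0.44) and SLC3A2 (0.20) and the synthetase ASNS (0.36) rose, while ATF4 (0.12), DDIT3 (0.34) and TRIB3 (0.24) were not called. CHAC1, a glutathione-degrading enzyme of this response, rested largely on day 3, when it had 34.8 and 61.4 CPM in ΔATG against 8.84 and 10.1 CPM in KO; it lost its call without ΔATG day 2 library b. Of 30 genes of glycolysis and hypoxia 2 were called higher, NDRG1 (0.56) and SLC2A3 (0.19), and none lower. Of 28 respiratory chain genes 1 was called higher and 2 lower. With the block, which raised calls over all tested genes from 3244 to 5775, the counts were 2 and 10. Apart from CHCHD2, described further on, the largest difference in size among the called ones was that of COX7C, at -0.15, which lost its call in 7 of 20 fits without a library, as SLC2A3 did without ΔATG day 2 library a or KO day 4 library b. The 7 sirtuin genes stood between -0.12 and 0.01, and SIRT6, a deacetylase named in earlier work on lncPRESS1, was not called at -0.08 ± 0.0492 (SE; adjusted p = 0.292). Of 15 genes of retinoic acid metabolism CRABP1 fell by 0.29 and RDH10 rose by 0.39, a call that was lost in 10 of 20 fits without a library and with only the compared libraries (adjusted p = 0.115 by edgeR). Of 20 immediate early and heat shock genes 4 were called higher, among them JUN (0.32) and HSPA8 (0.25).

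Among called genes of one sign on all days and a mean of at least 1 on the log2 CPM scale, the highest rises were, after GATA6-AS1 and CFC1, MYLK3 (1.43), SLC40A1 (1.38), ISL1 (1.35), the keratin pseudogene KRT16P3 (1.32), CDH10 (1.30), WNT8A (1.30), ENSG00000290657 (1.26) and HAND1 (1.25). MYLK3, a cardiac myosin light chain kinase, had 4.22 and 3.01 CPM on day 2 in ΔATG against 1.17 and 0.922 CPM in KO. SLC40A1, the iron exporter ferroportin, had 9.8 and 6.89 CPM on day 5 in ΔATG against 1.98 and 3.64 CPM in KO. GATA6-AS1, at 1.51 ± 0.499 (SE; adjusted p = 0.0363), rested on day 1, when KO was at 0 and ΔATG at 0.0735 and 0.0591 CPM; 6 of 20 fits without a library lost its call. It lies beside GATA6 on the other strand, and the sources used here do not say whether counting used the strand of the reads, so the pair cannot be told apart with certainty. KRT16P3 shares sequence with other keratin genes, and its counts are uncertain for that reason.

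The deepest falls were chosen above the same level of expression. CEBPZOS, a small gene on the strand opposite CEBPZ on chromosome 2, had 0.182 to 0.96 CPM in ΔATG, against 27.6 to 36.3 CPM in KO and 19.1 to 32.6 CPM in WT, a log2 difference of -5.98 ± 0.111 (SE; adjusted p = 6.03e-43). CEBPZ rose by 0.23. C19orf33 (-2.96), NECTIN3-AS1 (-2.72), PCDHA11 (-2.71), ENSG00000288749 (-2.34), S100A6 (-2.28), ZNF880 (-1.97), PIWIL2 (-1.76) and MT1F (-1.56) followed beside H19. S100A6, a calcium-binding protein, had 1.56 to 3.16 CPM in ΔATG, against 6.75 to 16.6 CPM in KO and 3.76 to 14.4 CPM in WT. PIWIL2, a partner of piRNAs in the germ line, had 2.85 to 4.49 CPM in ΔATG, against 7.62 to 19.1 CPM in KO. PCDHA11 shares its last exons with the other genes of the protocadherin α cluster, and MT1F and ZNF880 have near copies, so their counts are uncertain. BTF3, a subunit of the nascent polypeptide complex, had 227 to 271 CPM in ΔATG, against 388 to 471 CPM in KO, a difference of -0.83 ± 0.0207 (SE; adjusted p = 1.52e-37). PSMD5, a chaperone of proteasome assembly, had 40.7 to 70.2 CPM in ΔATG, against 16.2 to 34.5 CPM in KO and 16.7 to 37.2 CPM in WT. In neither gene did the ranges of ΔATG and KO overlap.

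A few genes were present in one edited line and nearly absent in the other: at least 1 CPM in all 10 libraries of one and at most 0.1 CPM in all 10 of the other. Of 25821 tested genes 4 were on in ΔATG and off in KO (0.0155%) and 1 was on in KO and off in ΔATG (0.00387%). The windows around their transcription starts, 250 bases before to 50 after, are shown as the starts of the genes that separate the lines most fully; they were taken from RefSeq on GRCh38.p14 by gene symbol, and 5 of 5 matched. ZNF667-AS1 and ZNF585A have 2 listed starts each, of which the first is printed; the windows of the second starts hold 21 and 9 CG. Capitals mark the dinucleotide CG, which reads the same on both strands.

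CHCHD2: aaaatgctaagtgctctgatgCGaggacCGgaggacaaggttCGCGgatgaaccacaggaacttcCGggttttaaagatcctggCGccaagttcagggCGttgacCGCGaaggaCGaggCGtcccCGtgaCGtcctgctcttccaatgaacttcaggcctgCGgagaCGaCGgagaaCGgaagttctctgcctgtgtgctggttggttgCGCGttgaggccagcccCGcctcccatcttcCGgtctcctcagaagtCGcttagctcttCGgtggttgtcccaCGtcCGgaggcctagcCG

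ZNF667: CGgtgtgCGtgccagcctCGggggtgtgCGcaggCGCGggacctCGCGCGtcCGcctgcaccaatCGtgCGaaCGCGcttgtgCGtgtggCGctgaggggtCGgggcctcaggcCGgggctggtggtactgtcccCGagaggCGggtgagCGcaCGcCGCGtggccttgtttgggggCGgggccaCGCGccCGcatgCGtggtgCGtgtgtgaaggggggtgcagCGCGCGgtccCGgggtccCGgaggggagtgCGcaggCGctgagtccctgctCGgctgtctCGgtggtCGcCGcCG

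ZNF667-AS1: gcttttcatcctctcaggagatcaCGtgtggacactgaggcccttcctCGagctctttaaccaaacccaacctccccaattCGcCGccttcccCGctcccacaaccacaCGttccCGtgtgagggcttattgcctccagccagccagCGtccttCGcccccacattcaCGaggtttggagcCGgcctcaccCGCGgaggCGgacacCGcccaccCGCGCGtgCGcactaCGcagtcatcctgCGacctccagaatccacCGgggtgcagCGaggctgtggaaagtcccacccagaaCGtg

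ZNF585A: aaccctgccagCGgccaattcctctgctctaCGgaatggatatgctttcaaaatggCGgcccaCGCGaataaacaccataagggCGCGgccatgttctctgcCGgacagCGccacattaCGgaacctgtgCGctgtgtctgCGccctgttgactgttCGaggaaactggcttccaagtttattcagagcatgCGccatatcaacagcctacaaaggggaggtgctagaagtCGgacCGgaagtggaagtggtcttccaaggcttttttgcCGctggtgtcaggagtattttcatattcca

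GPRC5D-AS1: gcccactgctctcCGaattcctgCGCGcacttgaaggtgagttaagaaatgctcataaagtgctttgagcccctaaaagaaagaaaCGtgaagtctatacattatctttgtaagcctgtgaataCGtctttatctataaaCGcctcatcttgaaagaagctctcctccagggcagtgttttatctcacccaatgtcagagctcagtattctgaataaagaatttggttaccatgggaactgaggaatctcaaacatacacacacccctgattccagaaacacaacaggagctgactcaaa

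CHCHD2, a mitochondrial protein that also acts as a factor for respiratory chain genes, was the gene on in KO. Its window is chr7:56106427-56106726 on the − strand and holds 26 CG, a count that 30.1% of the 35114 windows of 300 bases reach. It had 0 counts in 9 of 10 ΔATG libraries and 2 counts in all, against 30.4 to 43.9 CPM in KO and 40.9 to 67.6 CPM in WT. The ratio of KO to ΔATG was 10500, with a 95% counting interval of 2920 to 87100. Across all 32 ΔATG libraries of the differentiation arm the highest value was 0.0389 CPM, so the loss was in the line at day 0 and under every protocol. CHCHD2 has processed pseudogenes, and how the counting treated reads shared with them is not given in the sources used here.

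ZNF667 and ZNF667-AS1, a zinc finger gene and its antisense partner, were both on in ΔATG. Their windows are chr19:56477296-56477595 on the − strand, with 42 CG (reached by 5.85% of windows), and chr19:56477624-56477923 on the + strand, with 24 CG (33.9%), and 28 bases lie between them. ZNF667 had 9.53 to 14.8 CPM in ΔATG, against 5 counts over the 10 KO libraries and 9.4 to 13.6 CPM in WT, a ratio of 1350 with a 95% counting interval of 580 to 4170. ZNF667-AS1 had 5.38 to 10.3 CPM in ΔATG, against 0 counts in KO and 5.82 to 12.1 CPM in WT, which makes it at least 1310-fold higher in ΔATG at a floor of 3 counts over the KO group. ZNF585A, another zinc finger gene on chromosome 19 (chr19:37172646-37172945, − strand, 17 CG, reached by 46% of windows), had 3.38 to 7.94 CPM in ΔATG, against 0 counts in KO, and was at least 986-fold higher at the same floor. GPRC5D-AS1 (chr12:12979587-12979886, + strand, 6 CG, reached by 66.3%) had 1.2 to 2.76 CPM in ΔATG, against 2 counts in KO, a ratio of 625 with an interval of 173 to 5170. In all 4 genes WT was expressed, as it was in CHCHD2, so each edited line lacked transcripts that unedited cells carried. The median window held 14 CG, with quartiles of 4 and 28; the methylation of these windows was not measured here. The intervals and floors cover counting error only.

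**Figure D4:**
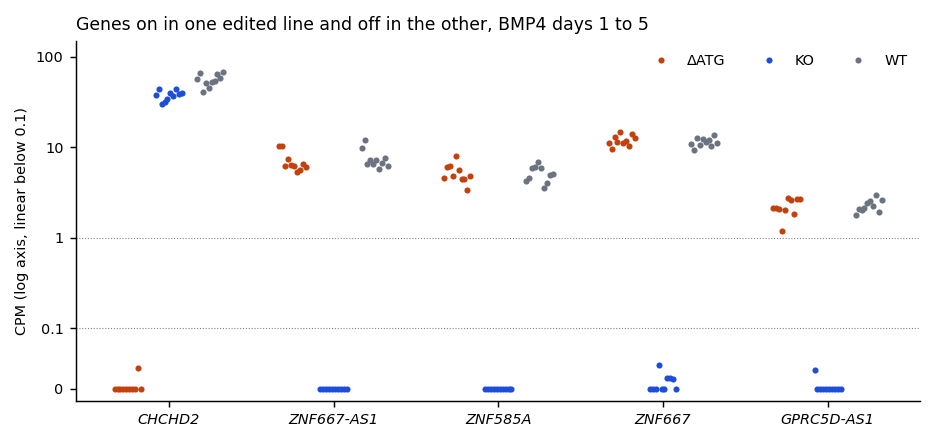
CPM of the 5 genes that were on in one edited line and off in the other, in each of 10 libraries per line over BMP4 days 1 to 5. Points are libraries; ΔATG is orange, KO blue and WT grey; the axis is logarithmic above 0.1 CPM and linear below, and dotted lines mark the limits of 1 and 0.1 CPM. CHCHD2 is missing in ΔATG, the other 4 genes are missing in KO, and WT carries all 5.

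The number of calls differed between days: 137 on day 1 (0.531% of tested genes), 651 on day 2 (2.52%), 269 on day 3 (1.04%), 776 on day 4 (3.01%) and 614 on day 5 (2.38%). Higher calls on days 1 to 5 numbered 57 (0.221%), 473 (1.83%), 147 (0.569%), 564 (2.18%) and 424 (1.64%). Lower calls numbered 80 (0.31%), 178 (0.689%), 122 (0.472%), 212 (0.821%) and 190 (0.736%), so lower calls outnumbered higher ones on day 1 alone among the 5 days. With 2 libraries per line and day these counts depend on single libraries. Leaving out one of the 4 libraries of day 1 gave 76 to 89 calls. On day 2 the count was 180 without ΔATG a, 337 without KO a and 333 without KO b. On day 3 it was 133 without ΔATG a, 143 without ΔATG b and 70 without KO b. On day 4 it was 172 without ΔATG a, 1322 without ΔATG b, 2385 without KO a and 148 without KO b, and on day 5 it was 174 without ΔATG a and 179 without KO a. With the block for the letter the counts were 326, 1198, 727, 3175 and 1907 on days 1 to 5, and with only the compared libraries in the fit they were 30, 57, 23, 11 and 63. The genes called on average had a median absolute log2 difference of 0.191, 0.285, 0.255, 0.37 and 0.333 on days 1 to 5. Those genes were chosen by the average of the same 5 days, so these sizes are a description and not a separate check. Called on all 5 days were 50 genes, and both ΔATG libraries lay below both KO libraries on each day in 0.709% of tested genes.

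The difference between the lines depended on the day for 205 genes (0.794%), for 884 with the block and for 5 with only the compared libraries in the fit. Of these 8 are primitive streak genes, with 18 tested. Without KO day 1 library a the count was 133, without KO day 2 library a 131, without ΔATG day 2 library a 117 and without KO day 4 library a 326. The smallest p above the same level was that of TGFBI, a matrix protein, with 56.4 and 53.6 CPM on day 3 in ΔATG against 21 and 23.5 CPM in KO, and 215 and 246 CPM on day 5 in ΔATG against 207 and 235 CPM in KO. Both ΔATG libraries lay below both KO libraries on day 1, at 8.36 and 8.33 CPM in ΔATG against 8.86 and 9.04 CPM in KO, and above them on days 2 to 4. The lines overlapped on day 5. VIM, the mesenchymal filament vimentin, had 134 and 140 CPM on day 2 in ΔATG against 185 and 170 CPM in KO, but 497 and 473 CPM on day 4 in ΔATG against 326 and 341 CPM in KO, so that the sign changed.

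The same pair of lines was also measured at day 0 and in the SMADi (neuroectoderm) and Endo (definitive endoderm) protocols. ΔATG and KO differed in 741 genes at day 0 (2.87%), 328 in SMADi (1.27%) and 4914 in Endo (19%). Higher and lower calls were 406 (1.57%) and 335 (1.3%) at day 0, 200 (0.775%) and 128 (0.496%) in SMADi, and 2478 (9.6%) and 2436 (9.43%) in Endo. Genes called with the same sign in BMP4 and at day 0 numbered 264, which is 8.14% of the BMP4 calls and 35.6% of the day 0 calls. In all 283 genes were called in both. With SMADi 185 genes were called in both, 166 of them with the same sign, which is 5.12% of the BMP4 calls and 50.6% of the SMADi calls. With Endo 1199 genes were called in both, and 389 of them had the same sign, 12% of the BMP4 calls and 7.92% of the Endo calls, so most genes called in both BMP4 and Endo had opposite signs. Called in all 4 with one sign were 75 genes, 33 higher and 42 lower. They include all 5 genes that were on in one line and off in the other, CEBPZOS, H19, S100A6, PIWIL2, MLKL, PSMD5, BTF3, CFLAR and CDKN1A, but no gene of the mesoderm or primitive streak lists.

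The difference itself was tested between settings. It differed between BMP4 and day 0 for 355 genes (1.37%; 900 with the block), of which 211 (0.817%) were higher under BMP4 and 144 (0.558%) lower. Between BMP4 and SMADi it differed for 885 (3.43%; 2862 with the block), 527 higher (2.04%) and 358 lower (1.39%). Between BMP4 and Endo it differed for 5393 (20.9%), 3047 higher (11.8%) and 2346 lower (9.09%). Mesoderm genes had a median log2 difference of 0.0693 at day 0, -0.337 in SMADi and -0.246 in Endo, where 8 were called lower and none higher. At day 0 and in SMADi no mesoderm gene was called in either direction. Some of their values there were very uncertain, such as HAND1 in SMADi at -0.717 ± 6.16 (SE), so the SMADi median shows no reversal. A higher difference in BMP4 than at day 0 was called for 3 of 29 mesoderm genes, where 0.817% of all tested genes were. The same held for 2 of 18 primitive streak genes, 2 of 27 genes of the BMP pathway and 1 of 22 Wnt genes. Some members without a call had a large SE, such as HAND1 at 3.44 ± 1.3 (SE; adjusted p = 0.233 by edgeR). Against SMADi the counts were 9, 4, 8 and 9 in the same order (background 2.04%), and against Endo 16, 12, 15 and 13 (background 11.8%). BMP4, for example, stood at -0.05 at day 0 and 0.88 under BMP4, with a difference from Endo of 1.60 (adjusted p = 1.74e-18). CDKN1A stood at -1.68 at day 0, -0.39 in SMADi and -0.34 in Endo. LNCPRESS1, at 1.19 under BMP4, stood at 2.23 ± 0.293 (SE) at day 0 and 1.51 ± 0.492 (SE) in Endo. In SMADi it stood at -0.147 ± 0.243 (SE) without a call. Day 0 rests on 2 libraries per line.

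**Figure D5:**
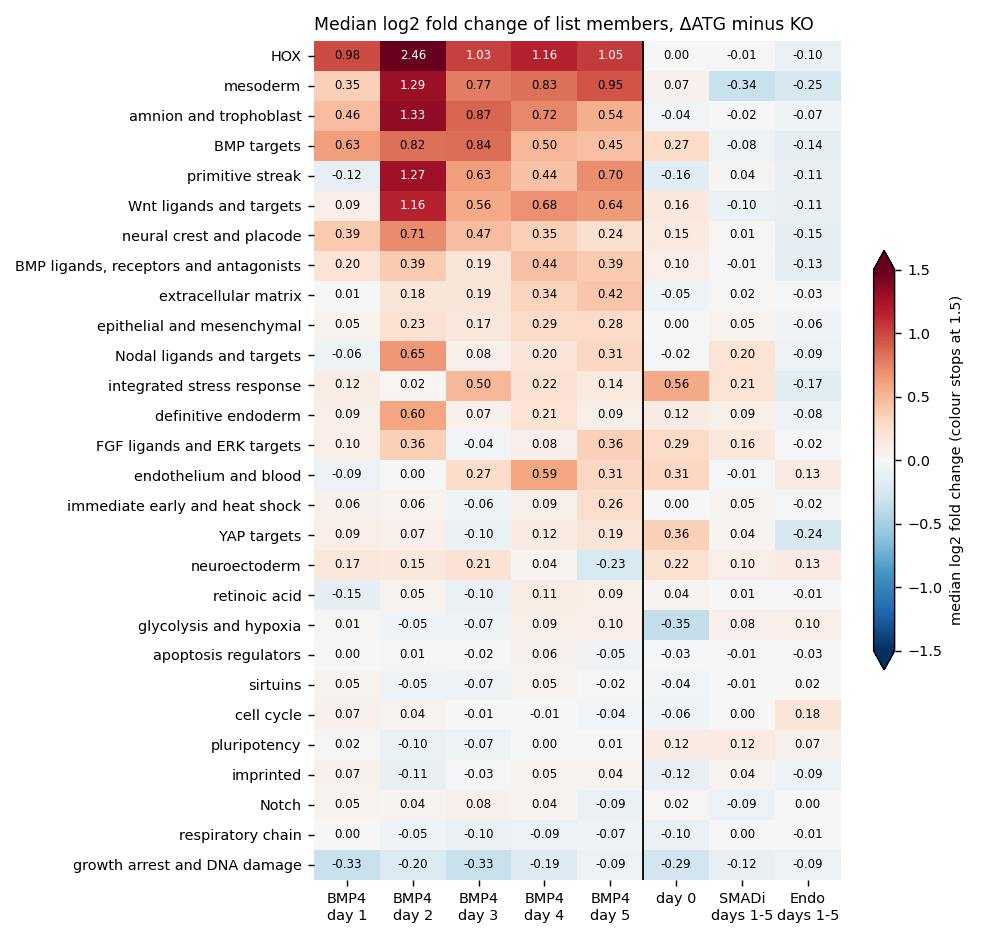
Median log2 difference, ΔATG minus KO, of the members of 28 gene lists on each BMP4 day, at day 0 and averaged over days 1 to 5 of SMADi and Endo. Rows are lists in order of their BMP4 average, red is higher in ΔATG and blue lower, and colours stop at 1.5. Mesoderm genes read 1.29 on day 2 of BMP4 and -0.25 in Endo, while growth arrest and DNA damage genes were below 0 at day 0 and under each protocol.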

How the data were processed

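The RNA was polyadenylated and the libraries stranded, per the labels' protocols. The values the authors deposited are expected counts, estimates that need not be whole, for 62703 genes in 120 columns. The build is GRCh38, per the submitters' processing notes. No aligner, quantifier or annotation is given in the sources used here. Columns were matched to libraries by their labels. Gene positions come from GENCODE 29, which held 24211 of the 25821 tested identifiers.

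Expected counts were rounded to whole numbers and fitted in R 4.3.3 with edgeR 4.0.16, all 96 libraries of the differentiation arm together with 1 mean for each of 48 groups, which left 48 residual degrees of freedom. filterByExpr left 25821 genes with at least 99.9813% of the counts of each compared library, and TMM scaled the libraries. The quasi-likelihood F test was two-sided, with Benjamini-Hochberg adjustment over all tested genes, and calls are genes with an adjusted p under 0.05. The average is the mean of the 5 contrasts of single days, and dependence on day is a joint test of their differences. The SE is the log2 difference divided by the square root of F. CPM use the scaled totals and carry no correction for gene length, so they compare libraries and not genes; a prior count of 2 was added for log2 CPM.

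Genes named are LNCPRESS1 and EMSLR, the 10 largest differences in each direction among calls of one sign on 5 days whose log2 CPM averaged 1 or more, up to 4 called members of each of 28 lists (2 in each direction, by size), the 5 smallest p for dependence on day, the genes on in one line and off in the other (at most 6), and the 3 smallest p in each comparison between settings. Other genes given with values per library, such as TBXT, BMP4, GATA3, BTF3 and MLKL, and list members given by their difference, were chosen after their values were seen. The comparison and the lists were chosen with earlier results of these data known.

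Alternatives were DESeq2 size factors, DESeq2 1.42.0, limma 3.58.1 with voom, no filter on low counts, only the libraries compared, a block for the library letter, leaving out each of 20 libraries, and, added after seeing the data, leaving out each day. The fits that left out a library reused the trended dispersions of the full fit, and a lone library is assumed to vary like the other groups. Libraries of one letter deviated together: the differences b minus a of ΔATG and KO correlated at 0.179 to 0.629 on 5 of 5 days, each above 0.1. This pairing was read from the values, since no label names a shared batch. The fits were also run on simulated counts with known changes. Those counts were drawn independently for each library, without a shared deviation of a letter, so that run does not test the pairing.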

Additional observations from a re-analysis of the deposited data

Results flagged for a closer look

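The difference between ΔATG and KO changed with the day for several genes, by the joint edgeR test over the 5 days. The adjusted p was 5.12e-06 for TGFBI, 9.6e-06 for PRRT1B, 7.59e-05 for PPIAP46, 0.000134 for IGF2 and 0.000191 for VIM. PRRT1B had 2.68 and 2.42 CPM on day 1 in ΔATG against 3.76 and 3.62 CPM in KO, but 10.3 and 6.42 CPM on day 2 in ΔATG against 3.41 and 3.37 CPM in KO. PPIAP46, a processed pseudogene of PPIA whose counts are uncertain because the copies are near identical, had 9.61 and 9.69 CPM on day 5 in ΔATG against 1.05 and 2.21 CPM in KO. The values of TGFBI, IGF2 and VIM by day are given above.

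The difference under BMP4 departed from that at day 0, when no BMP4 had been given, for EPHB3 by 1.77 on the log2 scale, for HSPA1B by 1.45 and for HSPA2 by 1.02. HSPA1B, a heat shock gene with a near-identical copy in HSPA1A, stood at -1.46 at day 0 and -0.01 over the days of BMP4. HSPA2 stood at -1.24 at day 0 and -0.22 under BMP4. EPHB3, an ephrin receptor, stood at -1.11 at day 0 and 0.66 under BMP4, a change of sign. The day 0 values rest on 2 libraries per line.

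Against SMADi the difference departed by -1.67 for NECTIN3-AS1, by 0.472 for CD99 and by -1.44 for ENSG00000288749. NECTIN3-AS1 and ENSG00000288749 were lower in ΔATG in both protocols, at -2.72 and -2.34 under BMP4 and -1.04 and -0.90 in SMADi. CD99, a surface glycoprotein, stood at 0.38 under BMP4 and -0.09 in SMADi. Against Endo it departed by -2.3 for SOX2, by 1.34 for ACTC1 and by 0.887 for SIPA1L2. SOX2 stood at -0.26 under BMP4 and 2.04 in Endo, and ACTC1, the cardiac actin gene, at 0.44 under BMP4 and -0.90 in Endo, each with a change of sign.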

How the results depend on the processing

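The averaged count of 3244 calls was 5775 with the replicate block, 1743 with only the compared libraries in the fit, 1777 without day 4 and 2081 without day 5; leaving out one library gave 2178 to 4495. Days 1 to 5 gave 519, 1085, 778, 1644 and 1379 calls without a filter on low counts, 326, 1198, 727, 3175 and 1907 with the replicate block, and 30, 57, 23, 11 and 63 with only the compared libraries, where the spread comes from fewer samples. DESeq2 gave 243, 480, 1379 and 1065 on days 1, 3, 4 and 5, and limma voom 429 on day 3. Leaving out one library gave 76 to 89, 180 to 630, 70 to 262, 148 to 2385 and 174 to 539 on days 1 to 5. Dependence on day counted 1453 genes without the filter, 884 with the block, 5 with only the compared libraries and 117 to 326 without one library. The difference from day 0 counted 583, 900 and 33 in the first 3 of these settings, 719 by DESeq2 and 304 to 406 without one library. The difference from SMADi counted 1554 without the filter, 2862 with the block, 1436 by DESeq2 and 736 to 1396 without one library, and that from Endo 4804 to 5933. Apart from alternatives whose construction differs in samples or genes, the cause was not tested. Among 123 named genes the direction changed for HSPA1B, from a main value of -0.01 to 0.0206 without day 1, 0.0755 without day 2 and between -0.0496 and 0.0269 without one library, and for PAX6, to -0.0629 without day 2; neither was called. The block changed no other call among them than those of GATA6-AS1, which was lost, and 1 that was gained. No call was lost with DESeq2 size factors, 4 without the filter (MSGN1, UQCRC2, CCND2, BCL2L2), 2 by voom (CHAC1, SLC7A11), 1 by DESeq2 (CFC1) and 11 with only the compared libraries. Leaving out days 1 to 5 in turn ended 4, 14, 13, 14 and 12 calls among the named genes, among them ID1 without day 1 or day 2, JUN and TWIST1 without day 2, and COL6A3 without day 2 or day 3. Leaving out one library ended a call in at least 1 fit for GATA6-AS1, CFC1, MSGN1, TFAP2B, POU3F2, RUNX1, LGR5, LFNG, CHAC1, SLC7A11, SLC2A3, COX7C, CCND2, BCL2L2, ZEB1, COL3A1, RDH10, VIM and TP63. Fold changes of genes near 0 CPM rest on the prior count that edgeR uses.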

Other observations

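The 75 genes called with one sign at day 0, under BMP4, in SMADi and in Endo include several zinc finger genes besides ZNF667 and ZNF585A; those named here were chosen after their values were seen. ZNF471 was higher in ΔATG than in KO by log2 differences of 2.55 under BMP4, 2.59 at day 0, 2.52 in SMADi and 4.04 in Endo. ZNF354C stood at 5.50, 4.76, 5.84 and 4.99 in the same order, ZNF229 at 3.14, 3.08, 3.29 and 3.67, and ZNF678 at 1.15, 1.25, 1.15 and 1.15. Zinc finger genes were not all higher: ZNF132 stood at -1.42, -1.32, -1.75 and -2.10, and ZNF880 at -1.97, -1.65, -1.21 and -1.23. Genes of this family share repeated sequence, so their counts are uncertain.

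Other genes with one sign in all 4 settings belong to different families. MCTS2, an imprinted retrogene, stood at 6.84 under BMP4, 8.34 at day 0, 7.35 in SMADi and 6.09 in Endo, and GLUD2, a glutamate dehydrogenase retrogene, at 1.90, 1.36, 1.54 and 2.66. The chemokine genes CCL28 (-5.65 under BMP4) and CXCL11 (-4.98), the factor DMRT2 (-4.89) and TCL1A (-3.08), a co-activator of AKT, were lower in ΔATG throughout. The acyl-CoA thioesterases ACOT1 and ACOT2, neighbours with similar sequence, stood at -0.90 and -0.66 under BMP4. Fold changes of genes near 0 CPM in a line rest on the prior count that edgeR uses and are no bounds.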
